A study of Mus musculus with 12 samples.

Results

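The noncoding RNAs Malat1, Neat1, Rpph1, Rmrp, Meg3 and H19 were followed in the liver RNA-seq of mice on a high-fat diet (HFD), 6 of the 23849 gene symbols measured. The RNAs were chosen by symbol, with their FPKM levels and their differences between these 12 livers already known. Malat1, Neat1, Rpph1 and Rmrp had a line of their own, while Meg3 and H19 shared a line with the microRNA symbols Mir770 and Mir1906-1, and Mir675, respectively. The tests below therefore describe these livers and are not independent evidence. Levels are FPKM, fragment numbers corrected for the length of the transcript and the size of the library.

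The mice were 8-week-old C57BL/6J males, and all were fed HFD for 6 weeks. During the last 2 weeks they received, once a day by oral gavage at ZT11, either drinking water (vehicle, the HFD-control) or Libramed, a gel-forming fibre product that the study calls Policaptil Gel Retard. ZT counts the hours since lights on. Livers were collected at ZT0 or ZT12, giving the groups vehicle ZT0, vehicle ZT12, Libramed ZT0 and Libramed ZT12 with 3 livers each, which the labels describe as biological replicates. No group on a normal diet was part of the sequenced set, so all values refer to HFD-fed animals. The hepatocyte markers Apoa1, Ttr, Trf, Serpina1a, Cyp2e1, Apob, Tat and Cps1 were present in all groups, with a summed level between 42426 and 58656 FPKM, and the T and B cell markers summed to at most 1.57 FPKM.

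Malat1 is a long noncoding RNA held in nuclear speckles, where splicing factors gather, and Neat1 is the RNA on which paraspeckles are built. Both are made by RNA polymerase II from neighbouring genes, and the 3′ ends of Malat1 and of the long form of Neat1 are not ordinary poly(A) tails: RNase P cuts a tRNA-like fold off the end, and an encoded A-rich tract closes the end as a triple helix. Rpph1 is the RNA subunit of RNase P, the enzyme that trims precursor tRNAs, and Rmrp is the RNA subunit of the related RNase MRP, which acts on precursor ribosomal RNA. Both are short products of RNA polymerase III. Meg3 and H19 are imprinted, maternally expressed RNAs that are abundant in the fetus and are largely silent in the adult liver.

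The libraries were made from RNA captured on oligo(dT), so the 3′ end of each RNA bears on how it can enter the library. The sequences shown are the last 60 bases of the annotated transcripts in GRCm38 (GENCODE vM21), 5′ to 3′, written as DNA. Capitals mark the polyadenylation signal AATAAA or the A-rich tract AAAAAGCAAAA, searched on the transcript strand only.
Neat1 long form (chr19:5824708-5824767, minus strand): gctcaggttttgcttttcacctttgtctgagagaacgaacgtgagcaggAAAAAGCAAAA
Neat1 short form (chr19:5842307-5842366, minus strand): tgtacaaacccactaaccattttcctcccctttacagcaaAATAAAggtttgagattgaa
Malat1 (chr19:5795690-5795749, minus strand): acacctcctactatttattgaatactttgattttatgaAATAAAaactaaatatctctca
Meg3 (chr12:109571662-109571721, plus strand): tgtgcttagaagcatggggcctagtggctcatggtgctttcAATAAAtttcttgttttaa
H19 (chr7:142575531-142575590, minus strand): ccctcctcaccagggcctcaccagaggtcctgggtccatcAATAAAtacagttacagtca
Rpph1 (chr14:50807449-50807508, minus strand): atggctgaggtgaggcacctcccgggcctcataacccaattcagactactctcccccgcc
Rmrp (chr4:43492788-43492847, minus strand): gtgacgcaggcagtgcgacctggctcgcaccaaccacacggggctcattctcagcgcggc

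The Rpph1 and Rmrp ends held neither motif. AATAAA was found in the last 60 bases of 27.2% of 141515 annotated transcripts, and AAAAAGCAAAA in 54 of them, or 0.0382%. In Malat1 the tract does not lie at the annotated end but inside the transcript, at positions 6681 to 6691 of 6983, with 292 annotated bases downstream. The 120 bases that end in it are shown because they hold the T-rich stretches and the tract that fold together.
Malat1 (chr19:5795982-5796101, minus strand): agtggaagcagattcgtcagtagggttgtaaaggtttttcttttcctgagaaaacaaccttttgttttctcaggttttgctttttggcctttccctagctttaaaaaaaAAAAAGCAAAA

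Malat1 (chr19:5795690-5802672) and Neat1 (chr19:5824708-5845478) lie on the minus strand, 22035 bases apart. Rpph1 (chr14:50807449-50807767, minus strand) overlaps 284 bases of Ccnb1ip1 on the same strand, 233 of them exonic, and Ccnb1ip1 itself reached at most 0.0321 FPKM. Rmrp (chr4:43492788-43493058, minus strand) overlaps 159 bases of Ccdc107 on the opposite strand, 124 of them exonic. Ccdc107 was measured at 98.4 to 144 FPKM, and reads of Rmrp and of the overlapping stretch of Ccdc107 cannot be told apart without strand. On this the sources differ: the labels name the TruSeq RNA kit v2, which does not mark strand, the study's methods name a stranded TruSeq protocol, and how strand was used in counting is not given in either. Meg3 (chr12:109541001-109571726, plus strand) and H19 (chr7:142575529-142578143, minus strand) overlap none of the neighbouring genes listed for them.

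A pair of libraries stood apart from the rest. Rn45s, the precursor of the ribosomal RNAs, was measured at 6263 FPKM in Libramed ZT0 replicate 2 and at 6081 FPKM in Libramed ZT12 replicate 2, against 264 to 790 FPKM in the other 10 livers. The relative depth of these libraries, estimated from low values, was 1.24 and 0.708, against 0.990 to 1.27 in the other 10. Libramed ZT12 replicate 2 thus had the lowest relative depth of all 12. Differences of Malat1 and Rpph1 that rest on these livers are given with and without them.

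By FPKM in these oligo(dT)-captured libraries, the description as abundant held for Malat1 and Neat1 only. How the capture bears on the measured levels of Rpph1 and Rmrp, whose ends held neither motif, was not tested. Over the 12 livers, the mean level was 62.2 FPKM for Malat1 and 72.3 FPKM for Neat1, ranks 1196 and 1068 of 23849. Rpph1 followed at 1.56 FPKM, then Meg3 at 0.775 FPKM, Rmrp at 0.655 FPKM and H19 at 0.0944 FPKM, rank 13150. The nuclear location itself was not measured, since the RNA was extracted from whole liver. In such bulk tissue, fewer cells of a type and less RNA per cell cannot be told apart.

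**Figure D1:**
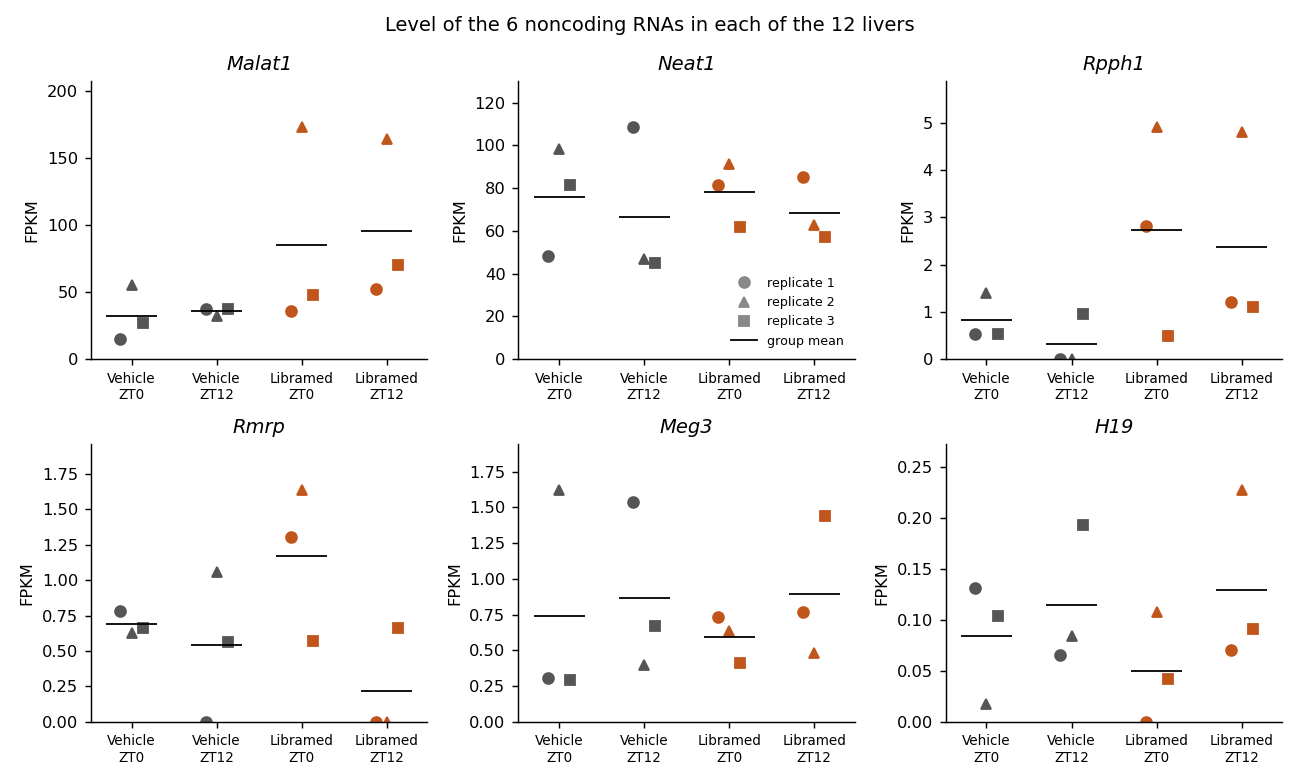
Level of each noncoding RNA in FPKM (linear axes from 0, a separate scale for each RNA) in the 12 livers, by group. Each symbol is 1 liver, its shape gives the replicate number and the line is the group mean. The 2 highest Malat1 values, 173 and 164 FPKM, and the 2 highest Rpph1 values, 4.90 and 4.80 FPKM, are both in the Libramed replicate 2 livers.

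Malat1 differed more between livers of the same group than nearly any other gene. At vehicle ZT0 it was measured at 14.7, 55.1 and 26.8 FPKM in replicates 1, 2 and 3. At vehicle ZT12 the livers were close together, at 37.1, 32.4 and 37.7 FPKM. The Libramed ZT0 livers gave 35.7, 173 and 47.6 FPKM, and the Libramed ZT12 livers gave 52.2, 164 and 70.1 FPKM. Replicate 2 of both Libramed groups was thus far above its partners, and the Libramed livers lay entirely above the vehicle livers at ZT12 but not at ZT0. Group means were 32.2 ± 20.7 (SD, n = 3) at vehicle ZT0, 35.7 ± 2.89 (SD, n = 3) at vehicle ZT12, 85.4 ± 76.1 (SD, n = 3) at Libramed ZT0 and 95.6 ± 60.3 FPKM (SD, n = 3) at Libramed ZT12. The ranges of neighbouring groups in this order overlapped. The SD within groups on the log2(FPKM + 1) scale was 0.87, higher than that of 99.0% of the 9806 genes tested (those averaging 1 FPKM or more), whose median SD was 0.14. Among the 623 genes of like level the median was 0.13. Without the Libramed replicate 2 livers the SD of Malat1 was 0.56, higher than that of 97.7% of genes.

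Neat1 was at a similar level in all groups. The vehicle ZT0 livers gave 48.1, 98.1 and 81.7 FPKM. At vehicle ZT12 replicate 1 gave 108 FPKM, the highest of all, and replicates 2 and 3 gave 46.7 and 44.9 FPKM, the lowest of all. With Libramed the values were 81.4, 91.4 and 61.7 FPKM at ZT0 and 85.2, 62.5 and 57.1 FPKM at ZT12. All 4 groups overlapped, and the replicate 2 Libramed livers were not set apart. Group means ran from 66.7 ± 36.2 (SD, n = 3) at vehicle ZT12 to 78.2 ± 15.1 FPKM (SD, n = 3) at Libramed ZT0, so that no neighbours in the order differed beyond their spread. The SD within groups was 0.49 on the log2 scale, above that of 97.0% of genes. The transcript length that the authors used for Neat1 is not given, and the annotated short form has 3004 bases against 20771 for the long form, so the order of Neat1 and Malat1 on the FPKM scale depends on it.

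Rpph1 was low in the vehicle livers and highest in the replicate 2 Libramed livers. Vehicle ZT0 gave 0.526, 1.40 and 0.528 FPKM, and at vehicle ZT12 replicates 1 and 2 were listed at 0 and replicate 3 at 0.945 FPKM. Libramed ZT0 gave 2.82, 4.90 and 0.491 FPKM, and Libramed ZT12 gave 1.22, 4.80 and 1.10 FPKM. The groups overlapped at ZT0, while at ZT12 the lowest Libramed liver was just above the highest vehicle liver. After scaling by relative depth, the lowest values above 0, in vehicle ZT0 replicates 1 and 3 and Libramed ZT0 replicate 3, differed by at most 1.07 times, and the highest, in Libramed ZT0 replicate 2, was 11.6 times the lowest. Rpph1 met the limit of 1 FPKM for testing only through the Libramed livers, with a mean of 2.56 FPKM in those 6 livers and 0.567 FPKM in the 6 vehicle livers, so a difference in that direction was partly set by the limit.

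Rmrp, Meg3 and H19 stayed under the limit of 1 FPKM and were not part of the test over all genes. Rmrp gave 0.785, 0.624 and 0.662 FPKM at vehicle ZT0, was listed at 0 in vehicle ZT12 replicate 1 and gave 1.05 and 0.564 FPKM in replicates 2 and 3. It gave 1.31, 1.64 and 0.572 FPKM at Libramed ZT0, was listed at 0 in Libramed ZT12 replicates 1 and 2, and gave 0.659 FPKM in replicate 3. Its 3 zeros were all at ZT12, and the groups overlapped in each of the 4 comparisons of a pair of groups. Unlike Rpph1, Rmrp was not raised in both Libramed replicate 2 livers, being the highest of all in the ZT0 liver and listed at 0 in the ZT12 liver.

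Meg3 ranged from 0.291 to 1.62 FPKM and was detected in every liver. Its 3 highest values, 1.62, 1.54 and 1.44 FPKM, were spread over vehicle ZT0, vehicle ZT12 and Libramed ZT12, 1 liver in each, so no group stood out. The partners of Meg3 in the Dlk1-Dio3 imprinted domain were also low, with Rian at most 0.217 FPKM and Dlk1 at most 0.0127 FPKM. H19 ranged from 0, listed for Libramed ZT0 replicate 1, to 0.227 FPKM in Libramed ZT12 replicate 2. Igf2, the growth factor gene that shares imprinting control with H19, was at most 0.111 FPKM.

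The first question of the design was how the liver differs between ZT12 and ZT0. None of the 3 RNAs tested passed in either treatment, although many genes did: limma called 10.4% of the 9806 genes in the vehicle livers and 12.4% in the Libramed livers at an adjusted p under 0.05. At an unadjusted p under 0.05 the shares were 27.4% and 29.2%, again with none of the listed RNAs. In vehicle livers the log2 fold change, on the log2(FPKM + 1) scale, was 0.33 ± 0.41 (SE) for Malat1, -0.25 ± 0.39 for Neat1 and -0.51 ± 0.31 for Rpph1. The limma adjusted p-values were 0.65, 0.73 and 0.33. In Libramed livers the corresponding values were 0.34 ± 0.64, -0.20 ± 0.19 and -0.10 ± 0.57, with limma adjusted p-values of 0.77, 0.55 and 0.92. Without both replicate 2 livers they were 0.54 for Malat1 (limma adjusted p = 0.25), -0.02 for Neat1 and -0.14 for Rpph1. Malat1 then had an unadjusted limma p of 0.046, one of 1923 of the 9806 genes under 0.05. In the vehicle livers the groups overlapped for all 6 RNAs, as they did in the Libramed livers, whereas 33.2% and 34.9% of all genes showed no overlap. The direction for Malat1 turned in both treatments when a single library was left out: it was -0.11 without vehicle ZT0 replicate 1 and -0.14 without Libramed ZT12 replicate 2.

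Genes known to follow the day moved in the same livers. Of 8 evening clock genes, 7 were called higher at ZT12 in each treatment, among them Usp2 with a log2 fold change of 3.39 in vehicle and 3.85 in Libramed livers, Ciart with 2.82 and 3.27, and Per3 with 2.07 and 2.07. Of 4 morning clock genes, 3 were called lower in each treatment, including Arntl, the partner of CLOCK, with -1.64 and -1.35, while the fourth, Cry1, was called higher in Libramed livers (0.84). Among 24 nuclear speckle proteins, the company of Malat1, the splicing factor Srsf4 was called higher in vehicle livers (0.62, limma adjusted p = 0.039) and in Libramed livers (0.51, limma adjusted p = 0.032), and Tra2a was called lower in vehicle livers (-0.68, limma adjusted p = 0.043). The list median was 0.019 in vehicle and 0.088 in Libramed livers, against 0.0078 and 0.013 over all genes. Among 23 paraspeckle proteins, the company of Neat1, the RNA-binding protein gene Ewsr1 was called higher in vehicle (0.50) and Libramed livers (0.32). The medians were 0.074 and 0.097. For both protein lists the calls stayed under the share of all genes, 10.4% in vehicle and 12.4% in Libramed livers.

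Of 19 other nuclear and snoRNA-host long noncoding RNAs tested, Snhg12 was called higher (0.73) and 2900097C17Rik lower (-0.41) at ZT12 in vehicle livers. In Libramed livers Firre was called higher (0.37). Over all genes 10.4% were called in vehicle and 12.4% in Libramed livers, so this list was near or under that share. None of the 10 protein subunits of RNase P and RNase MRP tested was called in either treatment, with medians of -0.031 and 0.027. Of the 6 tested neighbours of Malat1 and Neat1, Frmd8, whose gene lies 4223 bases from Neat1, was called higher at ZT12 in Libramed livers (0.48, limma adjusted p = 0.044), while Neat1 there had the value of -0.20 given above. None of the 4 tested neighbours of Rpph1, the 5 of Rmrp, the 1 of H19 or the 5 imprinted and fetal liver genes was called in either treatment. A further 30 small nucleolar RNAs and histone mRNAs of the kind that lack a poly(A) tail were tested, some listed together with their host genes. In vehicle livers the histone genes Hist1h4k (-1.10), Hist3h2a (-1.01) and Hist1h2bc (-0.54) were called lower at ZT12. In Libramed livers Hist1h2bc (-0.57) was called lower and the small nucleolar RNA Snord22 (2.20) higher. This list too was near or under the share of all genes.

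**Figure D2:**
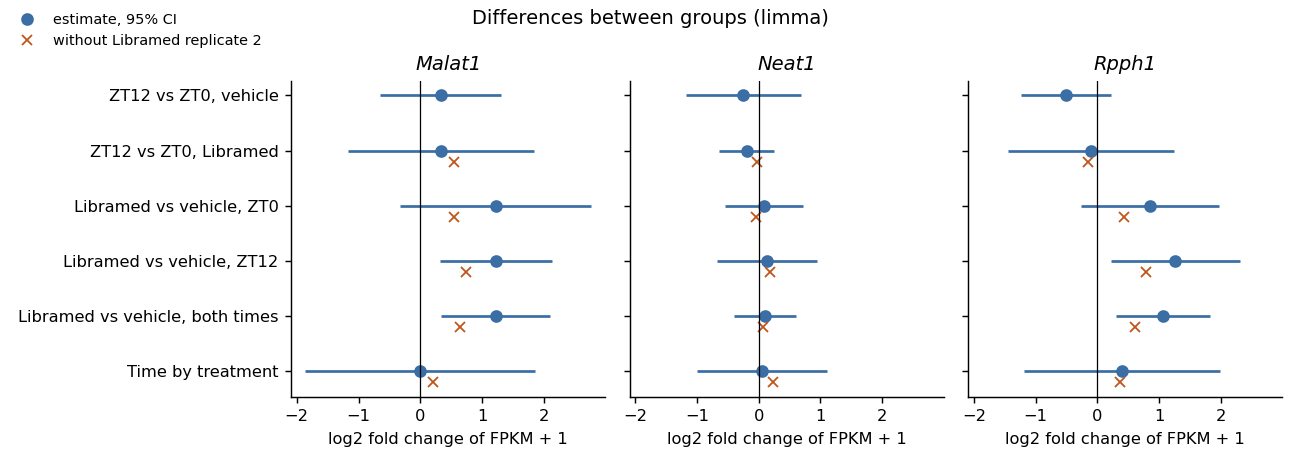
Differences between groups for Malat1, Neat1 and Rpph1, as log2 fold changes of FPKM + 1 (horizontal axes) in the 6 comparisons; points are limma estimates, bars their 95% confidence intervals, and crosses the estimate without the Libramed replicate 2 livers. Malat1 over both times moves from 1.22 to 0.64 and Rpph1 from 1.06 to 0.61 without these livers, and the Neat1 estimates over both times are 0.11 and 0.07.

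The second question was how treated mice differ from the HFD-control. Malat1 and Rpph1 had higher group means in Libramed livers and Neat1 did not differ beyond its spread, but no RNA passed the adjusted test. At ZT0 limma called no gene at all at an adjusted p under 0.05 (0%), and 905 genes, or 9.23%, at an unadjusted p under 0.05. None of the listed RNAs was among the latter. At ZT12 it also called none (0%), and 661 genes, or 6.74%, at the unadjusted level, Malat1 and Rpph1 among them. For Rpph1 this was partly set by the limit of 1 FPKM, which it met only through the Libramed livers. Counts are therefore read at the level of single RNAs, with their intervals.

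For Malat1 the ratio of Libramed to vehicle group means was 2.65 at ZT0 and 2.68 at ZT12. Without the replicate 2 Libramed livers it was 1.29 and 1.71. On the log2 scale the difference was 1.22 at both times, with a 95% confidence interval of -0.33 to 2.77 at ZT0 (limma adjusted p = 0.64) and of 0.32 to 2.13 at ZT12 (limma adjusted p = 0.73). The groups did not overlap at ZT12, where 5.88% of all genes had the Libramed livers entirely above the vehicle livers. Leaving out Libramed replicate 2 brought the log2 difference to 0.54 ± 0.51 (SE) at ZT0 and to 0.75 ± 0.15 at ZT12. Their limma adjusted p-values were 0.82 and 0.84. At ZT12 the remaining Libramed livers, at 52.2 and 70.1 FPKM, still lay above the vehicle livers, which reached at most 37.7 FPKM. The smallest p that an exact permutation test can give with 3 livers against 3 is 0.1, and it gave 0.3 at ZT0 and 0.1 at ZT12, two-sided.

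For Rpph1 the log2 difference was 0.86 at ZT0 (95% confidence interval -0.26 to 1.98) and 1.27 at ZT12 (0.22 to 2.31), with limma adjusted p-values of 0.64 and 0.73. These became 0.43 and 0.79 without Libramed replicate 2. For Neat1 the difference was 0.08 at ZT0 (-0.55 to 0.72) and 0.14 at ZT12 (-0.68 to 0.95), intervals that leave room for a change of either sign. The value at ZT0 was -0.04 without Libramed replicate 2.

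With both times together and time as a covariate, the log2 difference was 1.22 ± 0.41 (SE) for Malat1, 1.06 ± 0.35 for Rpph1 and 0.11 ± 0.23 for Neat1. The limma adjusted p-values were 0.38, 0.38 and 0.89. Here 2 genes, or 0.0204%, were called over all genes, none of them a listed RNA. At an unadjusted p under 0.05 limma called 991 genes, or 10.1%, and 3.82% of genes were called higher with Libramed at this level, Malat1 and Rpph1 among them. For Rpph1 this place, like its p-values, was partly set by the limit of 1 FPKM, which it met only through the Libramed livers. An exact permutation of the treatment labels within each time, two-sided, gave 0.025 for Malat1, 0.03 for Rpph1 and 0.685 for Neat1, with 0.005 as the smallest p it can give. Without the replicate 2 Libramed livers the same exact permutation test gave 0.11 for Malat1 and 0.09 for Rpph1, with 0.01 as the smallest p. The differences themselves were then 0.64 for Malat1 (limma adjusted p = 0.52) and 0.61 for Rpph1 (limma adjusted p = 0.54), of which only Malat1 kept an unadjusted p under 0.05. A larger absolute difference than that of Malat1 over both times was found for 0.265% of genes, and for 0.959% without those livers.

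Whether the change over the day differed with treatment was asked by the interaction of time and treatment. It was 0.00 ± 0.85 (SE) for Malat1, 0.05 ± 0.48 for Neat1 and 0.40 ± 0.72 for Rpph1 on the log2 scale, with limma adjusted p-values of 1.00, 0.99 and 0.96. No gene was called (0%), and 650 genes, or 6.63%, had an unadjusted p under 0.05, none of the listed RNAs among them. The 95% confidence interval for Malat1 ran from -1.86 to 1.87, so a sizeable difference of either sign was not detectable with 3 livers per group.

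The 3 RNAs below the limit were compared one by one. Over both times the log2 difference between Libramed and vehicle was 0.0060 for Rmrp, -0.0060 for Meg3 and -0.014 for H19 (exact permutation p = 0.97, 0.985 and 0.835, two-sided). The value furthest from 0 was Rmrp at ZT12 against ZT0 in Libramed livers, at -0.84 (exact permutation p = 0.2, smallest possible 0.1), with the Libramed ZT12 livers at 0, 0 and 0.659 FPKM as given above. With no minimum FPKM, limma gave this difference an SE of 0.29, past an unadjusted p of 0.05, as it did 21.5% of 17066 genes, with an adjusted p of 0.19. The ranges of the ZT0 and ZT12 livers overlapped.

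Hardly any gene was called in the treatment comparisons (0% at ZT0 and at ZT12, 0.0204% over both times), and the lists around these RNAs were at that share. At ZT0, at ZT12 and over both times, 0 of 23 paraspeckle proteins, 0 of 24 nuclear speckle proteins, 0 of 10 RNase P and RNase MRP proteins, 0 of 19 other long noncoding RNAs and 0 of 5 imprinted and fetal liver genes had an adjusted p under 0.05. At the unadjusted level over both times, where 10.1% of all genes were called, 3 paraspeckle proteins were higher and 1 lower, with a list median of 0.042, and 3 nuclear speckle proteins were higher and 2 lower, with a median of 0.0061. The median over all genes was -0.019. For the 30 non-polyadenylated RNAs tested, mostly histone mRNAs and small nucleolar RNAs, the median was -0.11, and 1 was higher and 0 lower at the unadjusted level.

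Markers of several cell types, hepatocytes among them, differed between treatments at the unadjusted level in the same livers. None of the 31 tested had an adjusted p under 0.05. Over both times 8 of the 31 passed an unadjusted p under 0.05, against the 10.1% of all genes. Among them, with log2 differences in parentheses, were Des of stellate cells (0.37), the haemoglobin line Hba-a1,Hba-a2 (0.87), Kdr of endothelium (0.23), Vsig4 of liver macrophages (-0.42) and Cfd of fat cells (-1.57). The others were hepatocyte markers, of which 8 were tested, with 2 higher and 1 lower at this level. All 5 stellate and stromal markers tested had higher means over both times, but at ZT12 2 were higher and 3 lower. Over both times, 2 of the 3 red blood cell markers tested were higher with Libramed and 1 was lower. All 5 macrophage markers tested had lower means with Libramed over both times and at ZT0. Of these, 3 passed the unadjusted level at ZT0, where 5.81% of all genes were called lower. At ZT12, 2 of the macrophage markers were higher and 3 lower, none of them past the unadjusted level. The summed level of the macrophage markers ran from 28.5 to 35.4 FPKM at vehicle ZT0 and from 15.7 to 27.9 FPKM at Libramed ZT0, and from 14.3 to 40.1 FPKM at vehicle ZT12 and from 19.4 to 30.0 FPKM at Libramed ZT12. No macrophage marker was at 0 in all livers. The part of cell types in the differences of Malat1 and Rpph1 was not tested.

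Rn45s went with Malat1 and Rpph1 across the libraries in large part through the 2 Libramed replicate 2 livers. Malat1 ran against the summed ribosomal protein genes described further on. On the log2(FPKM + 1) scale and across the 12 livers, which differ in group and in library, Rn45s was the gene most like Malat1 of the 9803 compared (Pearson r = 0.89, Spearman rho = 0.45). The Pearson value was 0.58 without the 2 Libramed replicate 2 livers and the Spearman value 0.042. For Rpph1 and Rn45s Pearson r was 0.78 with and 0.19 without these livers, and for Malat1 and Rpph1 it was 0.76 and 0.31. For Neat1 and Rn45s Pearson r was 0.33 and Spearman rho 0.57 over 12 livers, and 0.68 and 0.59 over the other 10, so that without these livers Neat1 had the highest values of the 3 RNAs. The part of the libraries in the differences of Malat1 and Rpph1 was not tested beyond leaving these livers out.

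**Figure D3:**
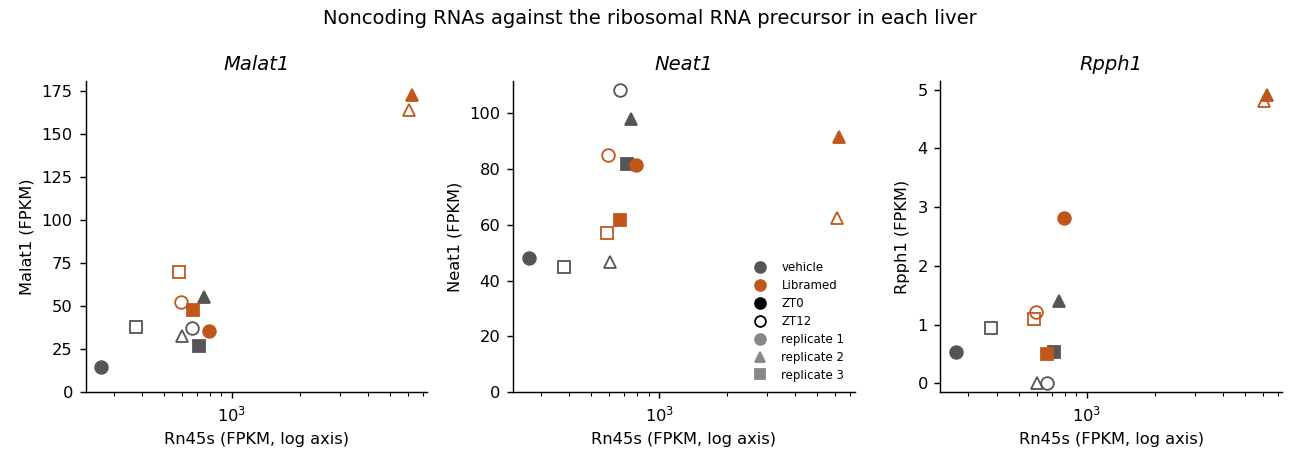
Malat1, Neat1 and Rpph1 (vertical axes, FPKM) against Rn45s (horizontal axes, FPKM, log scale) in each of the 12 livers. Grey is vehicle, orange Libramed, filled ZT0, open ZT12, and the shape gives the replicate number; the 2 Libramed replicate 2 livers lie alone at 6263 and 6081 FPKM of Rn45s, high in Malat1 and Rpph1 and within the range of the other livers in Neat1.

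These livers differed from the others in few genes by such an amount. Of 9806 genes, 46 were higher in both Libramed replicate 2 livers than in all other 10, and only 5 by more than 1.5 times, comparing the lower of the pair with the highest of the 10. These were Rn45s (7.69 times), Lars2 (3.94 times), Tnfrsf14 (2.72 times), Malat1 (2.34 times) and Rpph1 (1.70 times). The place of Rpph1 was partly set by the limit of 1 FPKM, which it met only through the Libramed livers. Its median in the other 10 livers was 0.737 FPKM. This ranking was made after the values were seen, and Lars2 and Tnfrsf14 are named from it. Lars2, which encodes the mitochondrial leucyl-tRNA synthetase, was at 466 and 427 FPKM in these livers and at 31.0 to 108 FPKM in the others. Tnfrsf14, a receptor of the tumour necrosis factor family, was at 5.37 and 6.21 FPKM against 0.522 to 1.98 FPKM. In the other direction 165 genes were lower in both livers than in the other 10, none of them by more than 1.5 times.

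Genes higher in both livers than in all other 10 made up 0.469% of those tested, so few or none would fall in lists of this size. None of the 19 other long noncoding RNAs, of the 30 non-polyadenylated RNAs, of the 3 nuclear-retained liver mRNAs (Mlxipl, Nlrp6 and Gcgr) or of the 10 RNase P and RNase MRP proteins was higher in both of them than in all other livers. The summed level of 66 ribosomal protein genes was 9353 and 9709 FPKM there, within 8942 to 11539 FPKM over all livers. Malat1 ran against this sum, with Pearson r = -0.66 and Spearman rho = -0.70 over 12 livers and r = -0.67 and rho = -0.61 over the other 10.

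**Figure D4:**
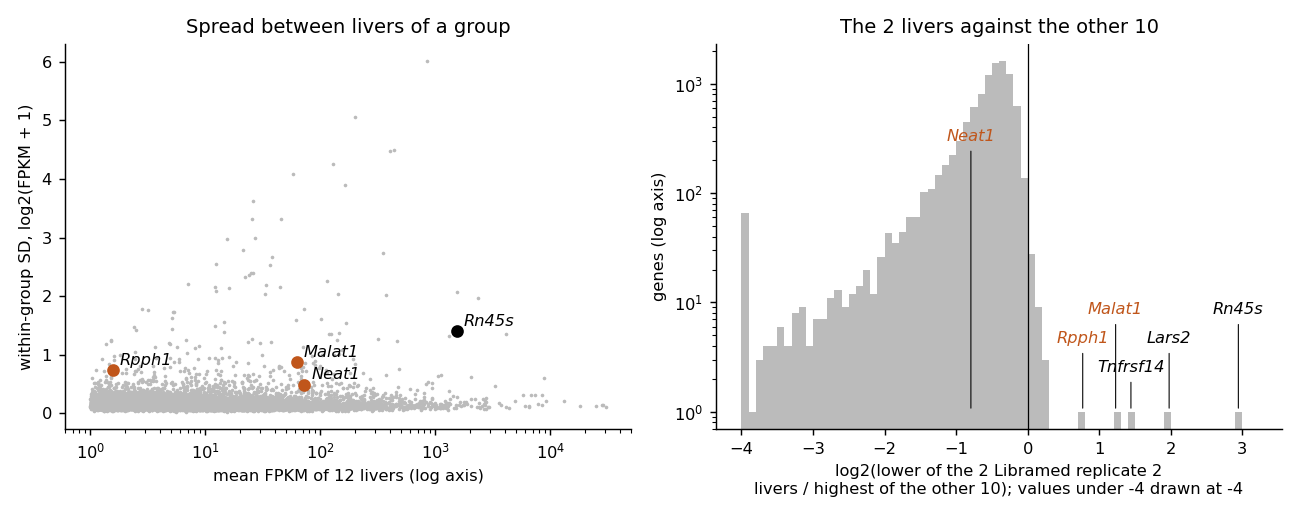
Left, the SD between livers of a group on the log2(FPKM + 1) scale against the mean FPKM (log axis) for 9806 genes, with the tested noncoding RNAs and Rn45s marked. Right, the number of genes (log axis) by the log2 ratio of the lower of the 2 Libramed replicate 2 livers to the highest of the other 10, where Malat1 and Rpph1 stand at the right with Rn45s, Lars2 and Tnfrsf14, and Neat1 lies among the bulk of genes. Rpph1 met the limit of 1 FPKM for testing only through the Libramed livers.

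Genes that ran with each RNA were named by their correlation over the 12 livers, which share library preparation and group differences. After Rn45s, those most like Malat1 were Bptf, a subunit of a chromatin remodeller (r = 0.85, 0.61 without the Libramed replicate 2 livers), and the transcription factor Elk4 (r = 0.85, 0.70 without). With the group means removed, the closest were Fbxl18 (r = 0.96), Deptor, an inhibitor of mTOR (r = 0.96), and the transcriptional repressor Zbtb7a (r = 0.95). These values were 0.93 to 0.94 when those livers were left out only after removing group means that included them. Those most like Neat1 over the 12 livers were the histone methyltransferase Setdb1 (r = 0.92), Gmeb2 (r = 0.90) and Dnajc17 (r = 0.89). Without the Libramed replicate 2 livers the values were 0.94, 0.94 and 0.89. Setdb1 varied far less than Neat1, from 4.73 to 5.84 FPKM. With the group means removed, Gmeb2, Dek and Capn2 were closest to Neat1 (r = 0.94, 0.93 and 0.93). Among those most like Rpph1 were Nnat (r = 0.78) and Rn45s (r = 0.78) and, with the group means removed, Cltc, Setd5 and Fan1 (r = 0.92, 0.90 and 0.89). With the group means removed, 68 of the 9803 genes compared had r of at least 0.8 with Malat1, 59 with Neat1 and 39 with Rpph1. The genes named are thus the highest of many. Malat1 and Neat1, though neighbours in the genome, went together only loosely (r = 0.27, rho = 0.31).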

How the data were processed

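Gene-level FPKM values for 12 livers were used as deposited by the authors, 1 table with 24138 lines. Per the labels and methods, libraries were oligo(dT)-selected TruSeq libraries. The submitters' processing notes name TopHat, Cuffnorm and mm10/GRCm38, whereas the methods name ELAND, and the notes give no versions. Of repeated symbols, 289 lines with the lower mean were dropped. Read counts are not in this table, so depth is known only as a relative value. Tests used limma 3.58.1 in R 4.3.3 (eBayes with trend) on log2(FPKM + 1) over the 9806 genes that averaged 1 FPKM or more, with Benjamini-Hochberg adjustment over all of them and a threshold of 0.05, which understates changes of low genes. The functions were tested on simulated data. Exact permutation tests were two-sided. The RNAs and gene lists were chosen with earlier results of these data known. Named genes were the 6 RNAs, the 3 most correlated genes of each tested RNA, with and without group means, and list members with an adjusted p under 0.05, at most 4 per list. Lars2, Tnfrsf14, Ccnb1ip1, Ccdc107, Rian, Dlk1 and Igf2 were named after their values were seen. So were the markers Des, Hba-a1,Hba-a2, Kdr, Vsig4 and Cfd in the treatment comparisons. Some genes that the rule names are not reported here. Replicate numbers were not treated as pairs. Alternatives covered pseudocount, filter, scaling, model and single libraries. Positions and sequences come from GRCm38 (GENCODE vM21).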

Additional observations from a re-analysis of the deposited data

How the results depend on the processing

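No listed RNA passed an adjusted p of 0.05 in any of the 6 comparisons under any of 105 alternatives, and the lowest adjusted p was 0.093 (Malat1, ZT12 against ZT0 in vehicle livers, without vehicle ZT0 replicate 2). Of 309 recomputed log2 fold changes, 279 kept their direction and 30 reversed, 26 of them on leaving out 1 library. The interaction of Malat1, near 0, became -0.0060 with a pseudocount of 0.1, -0.00090 with median-ratio scaling and -0.030 with quantile normalization. Neat1 at ZT0 became -0.039 without the Libramed livers of replicate 2, an alternative chosen after seeing the data, as was removing the trend with length and GC content, which reversed none. A pseudocount of 0.1 raised the difference of Rpph1 at ZT12 from 1.27 to 3.18, with 2 vehicle livers listed at 0. With the replicate number as a block, 0 listed RNAs were called, and the genes called over the day fell from 1020 to 279 in vehicle and from 1212 to 709 in Libramed livers. Deviations of same-numbered livers correlated between -0.28 and 0.26, the highest being the Libramed replicate 2 livers that share high Rn45s, so the numbers were not taken as pairs. Leaving out 1 library gave these ranges. Over the day Malat1 ranged from -0.11 to 0.81 in vehicle and from -0.14 to 1.02 in Libramed livers, Neat1 from -0.66 to -0.031 and from -0.36 to -0.075, and Rpph1 from -0.83 to -0.29 and from -0.66 to 0.33. Between treatments Malat1 ranged from 0.54 to 1.70 at ZT0, from 0.75 to 1.57 at ZT12 and from 0.92 to 1.43 over both times, and Rpph1 from 0.43 to 1.42, from 0.79 to 1.59 and from 0.83 to 1.33. Neat1 ranged from -0.21 to 0.29 at ZT0, from -0.083 to 0.54 at ZT12 and from -0.019 to 0.29 over both times. The interaction ranged from -0.47 to 0.68 for Malat1, from -0.16 to 0.46 for Neat1 and from -0.15 to 0.84 for Rpph1. The cause of these changes was not tested. These ranges show how far single livers moved the estimates and are not limits of detection. With 3 livers per group, and with Rpph1, Rmrp and H19 near the lowest values measured, differences may have gone undetected.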
